A study of Homo sapiens with 4 samples.

Results

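Membrane transporters, ATP-driven pumps and ion channels were followed in RCC4 cells depleted of MIRE. The genes were those whose symbol starts with SLC, or with ATP, ABC, KCN, SCN, CACN, CLCN, TRPM, TRPV, TRPC or AQP followed by a digit or letter, leaving out SLC2A3, SLC2A14, SLC7A5, SLC7A11 and ATP1B1. They number 41 of the 1176 genes in the deposited tables. RCC4 is an established human cell line from a clear cell renal carcinoma, lacks functional VHL and is labelled as epithelial. Cells received a lentiviral hairpin against MIRE (shMIRE, genotype given as MIRE knockdown, n = 2 libraries) or a lentiviral control hairpin (shControl, genotype given as WT, n = 2 libraries), and all were collected on day 3. Polyadenylated RNA was sequenced, and the study compared gene expression between the hairpins. All libraries come from 1 cell line, and the labels describe 1 hairpin label per group and no separate infections, so the p-values rest on variation among 4 libraries that could be technical replicates. RefSeq lists MIRE as a synonym of the long non-coding RNA gene SAP30-DT, the labels give no identifier, and the size of the depletion was not analysed here.

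Carriers of the SLC families move sugars, amino acids, organic ions and metals across membranes, mostly down a gradient or coupled to another ion. ATP-driven pumps set up the gradients on which many carriers run, and channels let ions or water pass through a gated pore. In the kidney tubule, from which clear cell carcinoma is thought to arise, such proteins reclaim solutes from the filtrate, secrete organic anions and cations, and hold osmolytes inside cells.

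Of these 41 genes, 17 were higher and 24 were lower in shMIRE than in shControl, and the libraries of the groups did not overlap for any of the 41 (all listed genes: 38.9% higher and 60.0% lower without overlap). With limma, 41 of 41 passed at an adjusted p under 0.05, the smallest adjusted p being 0.000124 (SLC35E1). In these bulk libraries, fewer cells that express a gene and less of its RNA per cell cannot be told apart. The count of 41 carries no weight of its own, because the authors' tables hold genes whose group means differ by about 2-fold or more. For the same reason, the adjusted p-values and kept calls of single genes given below are not independent evidence of a difference. Of all listed genes 97.5% passed, 38.5% as higher and 59.0% as lower, and 99.0% did not overlap. The split of the transport genes, 41.5% higher and 58.5% lower, lay near that of all listed genes. Their median log2 fold change (shMIRE over shControl) was -1.03, beside -1.16 for all listed genes. It was 1.91 for the 17 higher ones, beside 1.40, and -1.33 for the 24 lower ones, beside -1.58. The higher transport genes had low values (median 70, beside 528.75 for all higher listed genes). At like mean values the median absolute log2 fold change of transport genes, both directions together, was below that of all listed genes. It was 1.11 beside 1.29 (at least 1000), 1.27 beside 1.33 (100 to under 1000) and 2.07 beside 2.36 (under 100). The prefixes cover 704 protein-coding genes of GENCODE 29, of which the 41 make 5.82%, and the tables list 5.87% of all protein-coding genes. Leaving out 1 library lowered the counts of transport genes that passed, in some fits by more than 1.5 times. It also lowered those of all listed genes. Transport genes had lower values, with a median of 110.25 beside 396.625 for all listed genes, and the part of level in these losses was not tested. Some calls of transport genes held without each library in turn and others did not, and none of the 41 genes changed sign. How often calls held over all listed genes was not counted.

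The values are the deposited ones, whole numbers per gene that look like read counts already scaled between libraries and rounded, and they are not divided by gene length. Summed over the 41 genes they reached 37063 and 38649 in the shMIRE libraries, against 60627 and 61160 in the shControl libraries. All listed genes together summed to 2043204 and 2002994 in shMIRE and to 2476944 and 2514039 in shControl. The transport genes thus made 1.81% and 1.93% of the listed values in shMIRE, against 2.45% and 2.43% in shControl. Most of this sum belonged to a few genes with high values, and those were mainly lower: of the 10 genes with a mean of at least 1000 over the 4 libraries, 8 were lower (all listed genes at that level: 58.9% lower). Of the 17 genes with a mean under 100, 6 were lower and 11 were higher (all listed genes at that level: 68.4% lower). The 2 genes of at least 1000 that were higher in shMIRE were KCNJ15 and SLC30A7.

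**Figure D1:**
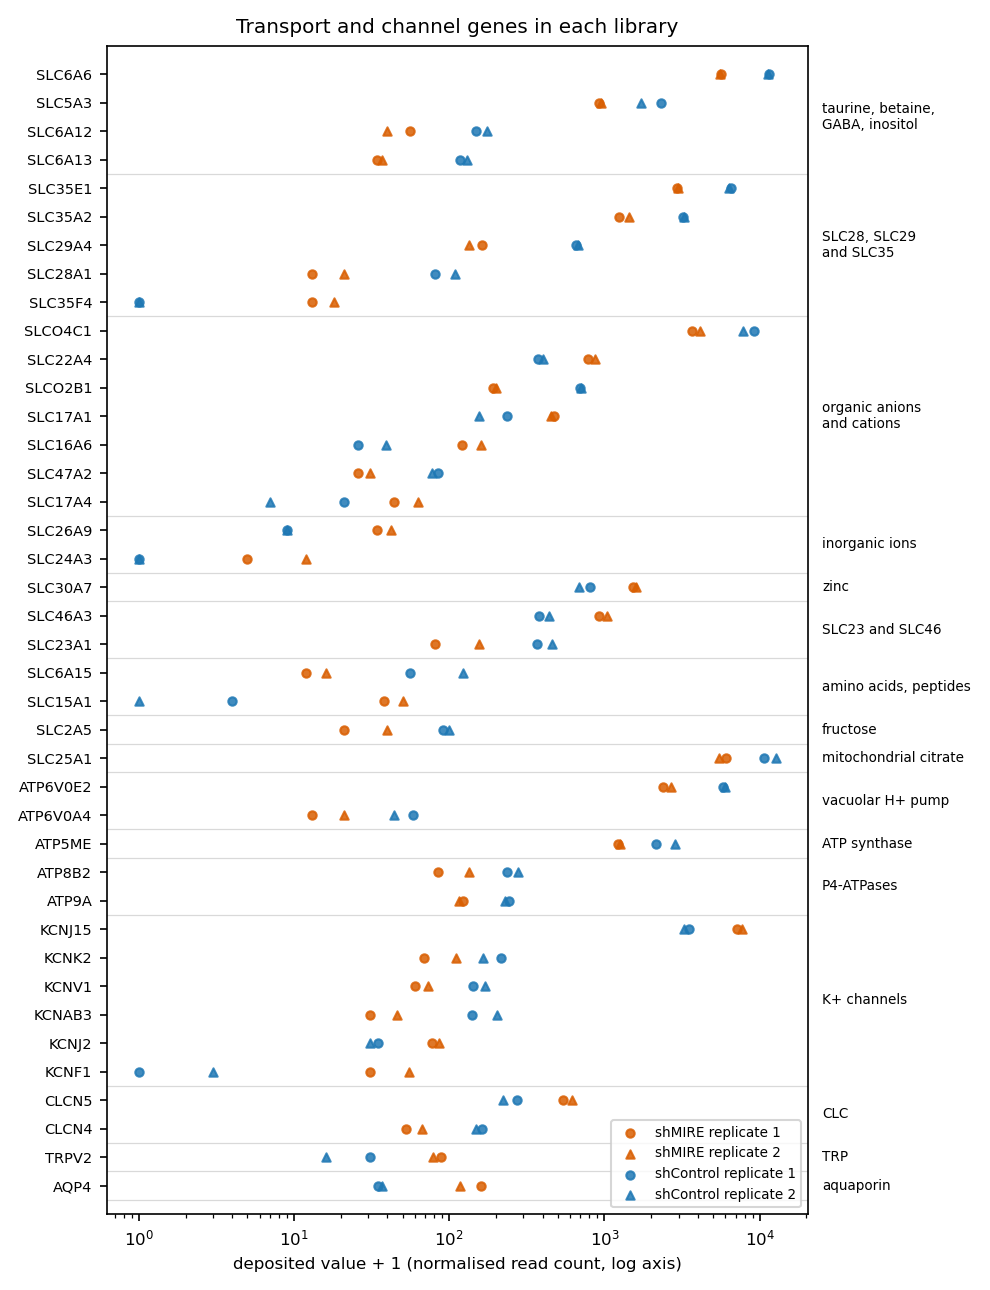
Deposited value plus 1 (log axis) of 40 transport genes in the 2 shMIRE libraries (orange) and the 2 shControl libraries (blue), grouped by what the protein carries. In every row the orange and the blue points stay apart, to the left for the 24 lower genes and to the right for the 16 higher ones shown.

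**Figure D2:**
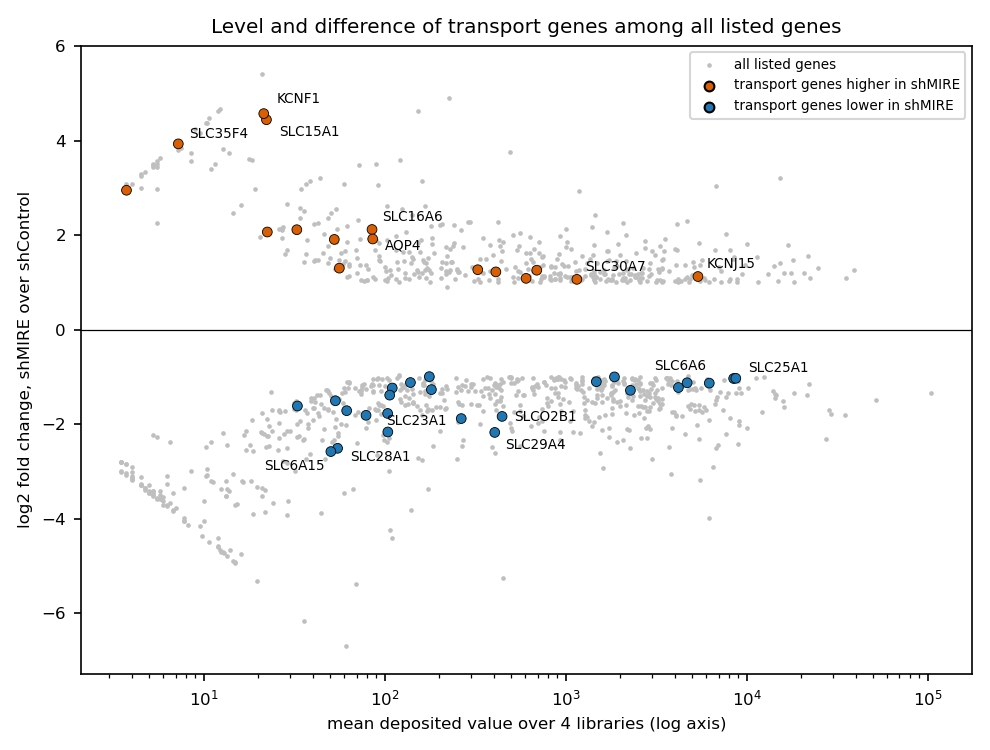
Log2 fold change of value plus 1, shMIRE over shControl, against the mean value over the 4 libraries (log axis), for all 1176 listed genes (grey) and 40 transport genes (colour). The empty band around 0 reflects the listing of genes with about a 2-fold difference; transport genes with high values lie close to its edges and mostly below 0, and the 4 largest positive values of transport genes belong to those listed at 0 in at least 1 shControl library.

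The 3′ untranslated regions of the transport genes were searched for the heptamer GCTGTGT, whose frequency differs between the lower and the higher genes of these tables. It stood in the longest annotated 3′ UTR of 10 of 24 lower transport genes (41.7%) and of 3 of 17 higher ones (17.6%). Among all listed genes with such a UTR it stood in 289 of 704 lower ones (41.1%) and in 84 of 459 higher ones (18.3%), and among 17896 protein-coding genes that are not listed in 17.2%. Only the transcribed strand was searched. The heptamer was found on these same tables, transport genes included, so the shares describe them and add no separate support. UTR length, which sets how many places a heptamer can occupy, had a median of 1958.5 bases in the 24 lower and 2003 bases in the 17 higher transport genes. Per kb of UTR there were 0.211 sites in the lower and 0.0681 sites in the higher transport genes, beside 0.303 in all lower and 0.0938 in all higher listed genes and 0.120 in protein-coding genes that are not listed. The lower transport genes thus had fewer sites per kb than all lower listed genes, whose UTRs had a shorter median length of 1286.5 bases. The sites are shown for the 6 lower genes with the highest values that carry one, and for KCNJ15, the higher gene with the highest values, read from GENCODE 29 transcripts (hg38), 5′ to 3′, with the heptamer in capitals.
SLC6A6 (chr3:14485420-14485446, plus strand): attcttcggtGCTGTGTagctggcaga
SLC35E1 (chr19:16551212-16551238, minus strand): tgagacaattGCTGTGTaaaacgtgaa
ATP6V0E2 (chr7:149879937-149879963, plus strand): ggcaccctttGCTGTGTctcctcagag
SLC35A2 (chrX:48903875-48903901, minus strand): tatccgtctgGCTGTGTgaggcacccc
SLC5A3, first of 2 sites (chr21:34100466-34100492, plus strand): tagcaatggtGCTGTGTccttcggcct
SLC5A3, the other site (chr21:34101572-34101598, plus strand): ccttcacattGCTGTGTcagttctaca
SLCO2B1, first of 2 sites (chr11:75204689-75204715, plus strand): ccactaaattGCTGTGTgacttcaggc
SLCO2B1, the other site (chr11:75204769-75204795, plus strand): ttgggcatttGCTGTGTtggccatttc
KCNJ15 (chr21:38306654-38306680, plus strand): acaaaaggaaGCTGTGTttgtgtactg
Most flanking bases differ from gene to gene. Just before the heptamer stands T at the printed sites of lower genes except SLC35A2 (G), and A in KCNJ15. Of the sites not printed, those of SLC29A4 and KCNK2 have T, those of CLCN4, CLCN5 and AQP4 have A, and that of SLC2A5 has G. Whether this base matters was not tested. SLC29A4, KCNK2, CLCN4 and SLC2A5 were the other lower genes with the heptamer, and CLCN5 and AQP4 the other higher ones. The lower genes SLC25A1 and SLCO4C1, also among those with high values, did not have it in this UTR.

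Carriers of taurine, inositol, betaine and GABA were all lower in shMIRE. This class had 4 listed genes and 4 fell (all listed genes: 59.0% passed as lower), with a median log2 fold change of -1.43. SLC6A6 (ENSG00000131389, chromosome 3, 14402576 to 14489349), the sodium- and chloride-coupled taurine carrier, had the highest values of the class, and its replicates lay close together in both groups. It stood at 5614 and 5543 in shMIRE, against 11526 and 11265 in shControl, 2.04-fold lower (log2 fold change -1.03, SE 0.06, limma adjusted p = 0.000134). SLC5A3 (ENSG00000198743, chromosome 21, 34073570 to 34106262), the sodium-coupled carrier of myo-inositol, was at 922 and 948 in shMIRE, against 2320 and 1728 in shControl. Its shMIRE libraries agreed closely and its shControl libraries were farther apart. Like SLC6A6 it carries an organic osmolyte, a solute that kidney cells take up to balance salt outside. SLC6A12, the carrier of betaine and GABA and so also of an osmolyte, was at 55 and 39 in shMIRE and at 147 and 175 in shControl, 3.43-fold lower. SLC6A13, a GABA carrier, was at 33 and 36 in shMIRE and at 117 and 130 in shControl, 3.58-fold lower. SLC6A12 and SLC6A13 are neighbours on chromosome 12, both on the minus strand and 6050 bases apart, and no other listed gene lies within 500 kb of them. Limma's adjusted p was 0.0671 and 0.0627 for SLC5A3 without shMIRE replicate 1 or 2, and 0.0645 and 0.0814 for SLC6A12 without shControl replicate 1 or 2.

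Carriers of organic anions and cations moved in both directions. Of 7 listed, 4 rose and 3 fell, with a median log2 fold change of 1.09. Among all listed genes, 38.5% passed as higher and 59.0% as lower. Both listed members of the SLCO family, organic anion transporting polypeptides, fell. SLCO4C1 (ENSG00000173930, chromosome 5, 102233986 to 102296549), a carrier of the basolateral membrane of the proximal tubule, averaged 3903.5 ± 349 in shMIRE (3657 and 4150), against 8546.5 ± 969 in shControl (9232 and 7861; SD, n = 2 each). That is 2.19-fold lower, with an SE of 0.11 on a log2 fold change of -1.13. SLCO2B1, which takes up steroid sulphates and many drugs, was at 191 and 199 in shMIRE and at 692 and 702 in shControl, 3.57-fold lower and with little spread in either group. The third lower gene, SLC47A2, exports organic cations in exchange for protons in the kidney. It was at 25 and 30 in shMIRE and at 83 and 76 in shControl.

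SLC22A4, SLC17A1, SLC16A6 and SLC17A4 made up the 4 that rose. SLC22A4 (ENSG00000197208, chromosome 5, 132294443 to 132344206), a carrier of organic cations and of the antioxidant ergothioneine, was at 778 and 870 in shMIRE, against 372 and 401 in shControl, 2.13-fold higher. SLC17A1, an anion and urate carrier of the proximal tubule brush border, was at 472 and 449 in shMIRE and at 233 and 155 in shControl. SLC17A4, its relative, was at 43 and 62 in shMIRE and at 20 and 6 in shControl. The SLC17A1 and SLC17A4 genes face each other tail to tail on chromosome 6, with 1705 bases between them and the listed histone genes H2AC6 and H2BC5 within 500 kb. Neither has annotated exon bases in common with another gene. SLC16A6, of the monocarboxylate carrier family, rose 4.41-fold, to 120 and 158 in shMIRE, against 25 and 38 in shControl. The replicates of these 4 genes agreed best for SLC22A4 and least for SLC17A4, whose shControl libraries differed 3.33-fold. With 1 library left out, limma's adjusted p was 0.0960 and 0.0858 for SLC17A1 (without shMIRE replicate 1 or 2), and 0.103, 0.145 and 0.202 for SLC17A4 (leaving out shControl 2, shMIRE 1 or shMIRE 2). It was 0.0580 and 0.0558 for SLC16A6 (without shControl replicate 1 or shMIRE replicate 2). For the lower gene SLC47A2 it was 0.0548 and 0.0527 (without shControl replicate 1 or 2).

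Nucleoside and nucleotide-sugar families were mostly lower. Of 5 listed genes of SLC28, SLC29 and SLC35, 4 fell and 1 rose, with a median log2 fold change of -1.28. Among all listed genes, 59.0% passed as lower. SLC35A2 (ENSG00000102100, chromosome X, 48903180 to 48911958), which brings UDP-galactose into the Golgi for glycan synthesis, was at 1233 and 1434 in shMIRE, against 3195 and 3269 in shControl, 2.42-fold lower (SE 0.10 on a log2 fold change of -1.28). SLC35E1, a family member with no established substrate, was at 2929 and 2988 in shMIRE and at 6487 and 6382 in shControl. Its replicates lay close together in both groups. Of its exon bases 12.2% are shared with other annotated genes. SLC29A4, which belongs to the equilibrative nucleoside family but is known for monoamine uptake, was at 162 and 133 in shMIRE and at 653 and 677 in shControl, 4.51-fold lower. SLC28A1, a sodium-coupled carrier of pyrimidine nucleosides, was at 12 and 20 in shMIRE and at 80 and 108 in shControl, 5.88-fold lower. SLC35F4, also without an established substrate, was listed at 0 in both shControl libraries and at 12 and 17 in shMIRE. The genes with high values in this class differed by little more than 2-fold and those with low values by more. For SLC28A1 limma's adjusted p was 0.0592 without shControl replicate 2.

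With SLC2A3, SLC2A14, SLC7A5 and SLC7A11 left out by the rule, the remaining amino acid, peptide, sugar and vitamin carriers were few and mostly low. SLC6A15, which carries branched-chain amino acids and proline, was at 11 and 15 in shMIRE and at 55 and 121 in shControl. Its 6.77-fold decrease was the largest among the transport genes with no library at 0, but its shControl libraries differed 2.20-fold. SLC15A1, the proton-coupled carrier of short peptides, was at 37 and 49 in shMIRE, against 3 and 0 in shControl. SLC2A5, the fructose carrier, was at 20 and 39 in shMIRE and at 90 and 98 in shControl. The fructose carrier thus fell and the peptide carrier rose, both at low values. SLC23A1, the kidney and gut carrier of vitamin C, was at 80 and 154 in shMIRE and at 368 and 459 in shControl, 3.53-fold lower. SLC46A3 (ENSG00000139508, chromosome 13, 28700064 to 28718970), a carrier of the lysosomal membrane, went the other way and was far more even: 922 and 1035 in shMIRE, against 379 and 437 in shControl, 2.40-fold higher (SE 0.13 on a log2 fold change of 1.26). Among these 5 carriers it alone kept its call without each library. Limma's adjusted p was 0.0924 and 0.0706 for SLC6A15 and 0.0744 and 0.0826 for SLC15A1 without shMIRE replicate 1 or 2. It was 0.126 and 0.142 for SLC2A5 and 0.101 and 0.131 for SLC23A1 without shControl replicate 1 or 2.

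The 3 listed carriers of metals and inorganic ions rose (all listed genes: 38.5% passed as higher), but SLC26A9 and SLC24A3 had low values. SLC30A7 (ENSG00000162695, chromosome 1, 100896076 to 100981753), which moves zinc into the Golgi, averaged 1562.5 ± 58.7 in shMIRE (1521 and 1604), against 747 ± 84.9 in shControl (807 and 687; SD, n = 2 each), 2.09-fold higher. SLC26A9, an epithelial chloride transporter, was at 33 and 41 in shMIRE and at 8 in each shControl library. SLC24A3, which exchanges sodium for calcium and potassium, was at 4 and 11 in shMIRE and listed at 0 in both shControl libraries, the lowest values of the 41 genes. Its adjusted p was 0.0848 and 0.0860 with limma without shControl replicate 1 or 2.

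SLC25A1 (ENSG00000100075, chromosome 22, 19175575 to 19178830), the mitochondrial citrate carrier that supplies citrate for lipid synthesis in the cytosol, was the most abundant of the 41 genes per length. It was at 6032 and 5440 in shMIRE, against 10676 and 12744 in shControl. The 2.04-fold difference had an SE of 0.11 on a log2 fold change of -1.03 (limma adjusted p = 0.000716). It was the 1 listed gene of the SLC25 family of mitochondrial carriers.

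With ATP1B1 left out by the rule, the other 5 listed genes of ATP-driven pumps and the ATP synthase all fell (all listed genes: 59.0% passed as lower). Their median log2 fold change was -1.22. The P4-type ATPases ATP8B2 and ATP9A belong to a family that moves phospholipids between the leaflets of a membrane. ATP8B2 was at 83 and 133 in shMIRE and at 233 and 277 in shControl, and ATP9A at 121 and 115 in shMIRE and at 242 and 229 in shControl. ATP9A, 2.0-fold lower, lay at the edge of what the tables list. The vacuolar pump acidifies endosomes and lysosomes. Its subunit gene ATP6V0E2 (ENSG00000171130, chromosome 7, 149872968 to 149891204) was at 2388 and 2663 in shMIRE, against 5780 and 5984 in shControl, 2.33-fold lower (SE 0.08 on a log2 fold change of -1.22). ATP6V0A4, a subunit of the pump in acid-secreting kidney cells, had low values, at 12 and 20 in shMIRE and at 57 and 43 in shControl. ATP5ME, a small subunit of the mitochondrial ATP synthase, was at 1218 and 1254 in shMIRE and at 2152 and 2827 in shControl, 2.01-fold lower. The exons of ATP5ME share 61.6% of their bases with MYL5 on the opposite strand. Those of ATP6V0E2 share 19.7% with other annotated genes, among them AC092681.3 on the same strand and others on the opposite strand. No source used here says whether counting used the strand, so reads at these places could belong to either gene. Where both genes lie on the same strand, counting by strand would not tell them apart either. In all, 18 of the 41 genes share some annotated exon bases with another gene, among them TRPV2 (12.8%) and SLC22A4 (8.74%). Limma's adjusted p was 0.121, 0.162 and 0.0653 for ATP8B2 when shControl 1, shControl 2 or shMIRE 1 was left out, and 0.0737 and 0.0654 for ATP9A without shControl replicate 1 or 2. It was 0.110, 0.0818 and 0.0705 for ATP6V0A4 when shControl 1, shControl 2 or shMIRE 1 was left out, and 0.0870 with quantile normalisation. For ATP5ME it was 0.0698 and 0.0645 without shMIRE replicate 1 or 2.

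Potassium channel genes moved both ways, 3 up and 3 down of 6 listed, with a median log2 fold change of 0.01. Among all listed genes, 38.5% passed as higher and 59.0% as lower. The inward rectifiers rose. KCNJ15 (ENSG00000157551, chromosome 21, 38155549 to 38307357), a rectifier of kidney tubule cells, was the channel gene with the highest level per length and averaged 7394.5 ± 383 in shMIRE (7124 and 7665), against 3383.5 ± 180 in shControl (3511 and 3256; SD, n = 2 each). That is 2.19-fold higher (log2 fold change 1.13, SE 0.08, limma adjusted p = 0.000197). KCNJ2, a related rectifier best known in heart and muscle, was at 76 and 85 in shMIRE and at 34 and 30 in shControl. KCNF1, a subunit that forms no current alone, was at 30 and 54 in shMIRE, against 0 and 2 in shControl. The genes of the other potassium channel families that fell were KCNV1, KCNAB3 and KCNK2. KCNV1, another silent subunit, was at 59 and 72 in shMIRE and at 142 and 168 in shControl. KCNAB3, a cytosolic beta subunit of voltage-gated potassium channels, fell 4.56-fold, to 30 and 45 in shMIRE, against 139 and 203 in shControl. KCNK2, a leak channel that opens with membrane stretch, was at 68 and 109 in shMIRE and at 215 and 164 in shControl. Each of these 5 genes kept its sign but lost its call in at least 1 fit with 1 library left out, whereas KCNJ15 kept its call throughout. Such fits also have fewer libraries from which to estimate spread. With limma, the adjusted p of KCNK2 was 0.219, 0.138, 0.131 and 0.0537 when shControl 1, shControl 2, shMIRE 1 or shMIRE 2 was left out, and 0.0596 with libraries scaled to equal sums. When shControl 1, shControl 2 or shMIRE 1 was left out it was 0.0513, 0.0751 and 0.0535 for KCNAB3 and 0.0745, 0.103 and 0.0616 for KCNV1. It was 0.0611 and 0.0793 for KCNJ2 without shControl replicate 1 or 2, and 0.0609 for KCNF1 without shMIRE replicate 2.

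The CLC genes, which encode related endosomal exchangers of chloride and protons, went in opposite directions. CLCN5 (ENSG00000171365, chromosome X, 49922615 to 50099235), which acidifying endosomes of the proximal tubule need for protein uptake, was at 537 and 617 in shMIRE, against 274 and 220 in shControl, 2.34-fold higher. CLCN4, its close relative, was at 52 and 66 in shMIRE and at 161 and 148 in shControl, 2.62-fold lower. Per kb of exon the pair stood at 50.4 for CLCN5 and 8.69 for CLCN4 in shMIRE, against 21.6 for CLCN5 and 22.8 for CLCN4 in shControl. Their levels per length were thus close in shControl and apart in shMIRE. That must follow for listed genes that change in opposite directions from like levels. TRPV2, a cation channel of the TRP family, and AQP4, a water channel, were the single listed genes of their families and both rose. TRPV2 was at 88 and 78 in shMIRE and at 30 and 15 in shControl. AQP4 was at 158 and 116 in shMIRE and at 34 and 36 in shControl, 3.91-fold higher. Of all 11 channel genes, 7 rose and 4 fell (all listed genes: 38.5% passed as higher and 59.0% as lower). Those that rose, other than KCNJ15 and CLCN5, had a mean under 100 over the 4 libraries. At that level 11 of the 17 transport genes were higher. Limma's adjusted p was 0.0515 for CLCN5 without shMIRE replicate 2, and 0.0851 and 0.0782 for CLCN4 and 0.0607 and 0.0581 for AQP4 without shControl replicate 1 or 2. When shControl 2, shMIRE 1 or shMIRE 2 was left out it was 0.0626, 0.108 and 0.0925 for TRPV2.

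**Figure D3:**
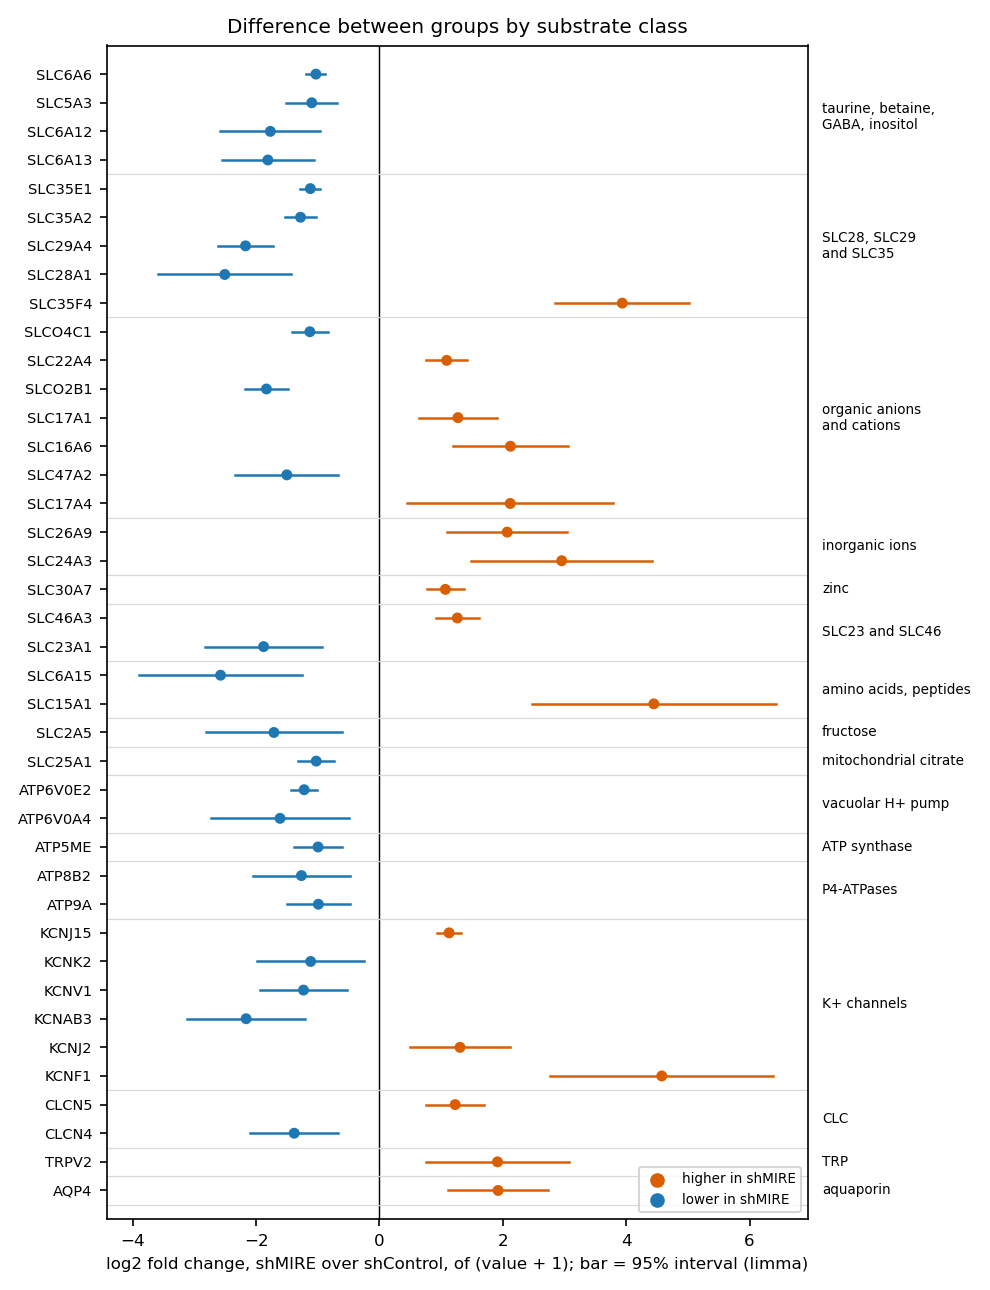
Log2 fold change of value plus 1, shMIRE over shControl, with limma's 95% interval, for 40 transport genes grouped by what the protein carries (orange, higher in shMIRE; blue, lower). All 4 carriers of taurine, inositol, betaine and GABA and all 5 pump and ATP synthase genes lie left of 0. Among all listed genes, 59.0% passed as lower. Intervals are widest for the low genes SLC15A1 and KCNF1.

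Levels of different genes were compared per kb of annotated exon. In shMIRE the order began with SLC25A1 (2737 per kb), ATP5ME (1315), SLCO4C1 (732), KCNJ15 (715) and SLC6A6 (676). In shControl it began with SLC25A1 (5587 per kb), ATP5ME (2648), SLCO4C1 (1602), SLC6A6 (1381) and SLC35E1 (887). KCNJ15 ranked 4 in shMIRE and 8 in shControl, where it stood at 327 per kb. Neighbouring ranks overlapped between libraries for SLCO4C1 and KCNJ15 in shMIRE, and for SLC35E1, ATP6V0E2 and SLC35A2 in shControl, so their order is not resolved. The other steps among the first 5 ranks did not overlap. The rank of ATP5ME is uncertain all the same, because 61.6% of its exon bases are shared with MYL5. With genes near 0 left aside, SLC22A4, SLC46A3, SLC17A1 and SLC30A7 all stood above SLC5A3 in shMIRE (306.5, 259, 225 and 187 per kb, against 80.8). In shControl they stood below it (144, 108, 94.9 and 89.2 per kb, against 175). Genes this close in shControl must change order when listed genes differ about 2-fold or more in opposite directions. The change of order is therefore no separate result.

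**Figure D4:**
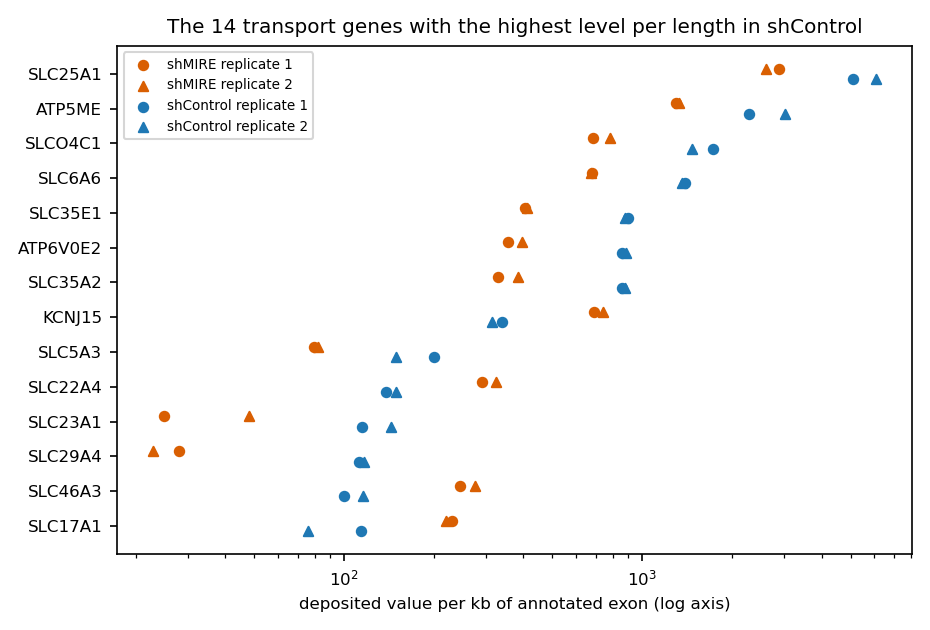
Deposited value per kb of annotated exon (log axis) in each library for the 14 genes highest in shControl; shMIRE libraries are orange and shControl libraries blue. In shMIRE the first 7 genes of the plot lie to the left of their shControl points, whereas KCNJ15, SLC22A4, SLC46A3 and SLC17A1 lie to the right.

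Channels, carriers and transport regulators under other symbols were looked up in 4 lists. Of their 143 genes 6 were listed, beside 5.87% of all protein-coding genes. Of these 6, 2 rose and 4 fell (limma adjusted p from 0.000175 to 0.0393). Among all listed genes, 38.5% passed as higher and 59.0% as lower. PDZK1, a scaffold that holds transporters at the proximal tubule brush border, fell 2.56-fold, to 1475 and 1566 in shMIRE, against 4104 and 3681 in shControl. MPC2, a subunit of the mitochondrial pyruvate carrier, was at 8800 and 7774 in shMIRE and at 15760 and 17407 in shControl, 2.0-fold lower, in the same direction as the citrate carrier gene SLC25A1. The listed connexin genes, GJB2 and GJA1, went opposite ways. GJB2 was at 2621 and 2472 in shMIRE and at 1280 and 1243 in shControl. ASIC2, an acid-sensing sodium channel, was at 335 and 327 in shMIRE and at 102 and 121 in shControl. GJA1 was low, at 0 and 4 in shMIRE and at 22 and 15 in shControl, and so was WNK2, a kinase of the family that regulates ion cotransporters, at 16 and 57 in shMIRE and at 92 and 157 in shControl. Of the 22 regulators, 2 were listed, of 78 other channel genes 3, of 36 other transporters 1, and of 7 FXYD subunits of the sodium pump 0. Limma's adjusted p was 0.204 and 0.166 for GJA1 without shControl replicate 1 or 2, and 0.192, 0.314 and 0.182 for WNK2 when shControl 1, shControl 2 or shMIRE 1 was left out.

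Cell identity could not be checked from these tables. Of 8 markers of renal carcinoma cells 0 were listed. Of 30 markers in 5 lists, 5 were listed. Of 7 proximal tubule markers 2 were listed, with sums of 1324 to 1562 in shMIRE and 581 to 790 in shControl, but these 2 went opposite ways. MIOX was at 1562 and 1324 in shMIRE and at 575 and 772 in shControl, and LRP2 was listed at 0 in both shMIRE libraries, against 6 and 18 in shControl. Limma's adjusted p was 0.0786 and 0.0558 for MIOX and 0.0685 and 0.0672 for LRP2 without shMIRE replicate 1 or 2. The 1 listed leukocyte marker of 5, ITGAM, reached 146 to 155 in shMIRE and 53 to 73 in shControl. The 1 listed endothelial marker of 5, FLT1, was at 0 in shMIRE and at 3 to 11 in shControl, and the 1 listed fibroblast marker of 5, COL1A1, at 4095 to 4407 in shMIRE and 1261 to 1290 in shControl. Their part in the transport results was not tested.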

How the data were processed

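RNA of 4 libraries (2 shMIRE, 2 shControl) was analysed. Named in the submitters' processing notes are hg38, DESeq2 1.20.0, featureCounts 1.5.0-p3 and HISAT2 2.0.5, without their order or role. The deposited values were treated as a score: whole numbers for 1176 listed genes, whose median ratio of replicate 2 to 1 was 1.01 in shMIRE and 1.02 in shControl without rescaling. How they were scaled and listed is not given in the sources used here; library depth is unknown, so no counting interval is given.

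IDs were matched to symbols for 1175 genes; coordinates, exons and 3′ UTRs (the longest of at least 20 bases, 1163 genes) are from GENCODE 29. Groups were compared on log2(value + 1) with limma 3.58.1 (R 4.3.3, intensity trend, no covariates, mean above 1), two-sided, Benjamini-Hochberg over all listed genes. A fold is the quotient of the 2 group means; log2 fold changes are on the log2(value + 1) scale, which understates low genes. An exact permutation of 2 against 2 libraries cannot go below p = 0.333. The fit was also run on simulated counts, in which most genes were unchanged and spread was set alike for all, unlike the listed genes. That run does not bear on the calls reported here. Equally numbered libraries deviated with a correlation of 0.0321 across genes, so they were not taken as pairs.

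The genes, classes and lists were chosen with earlier results of these data known. Full values follow a rule: the 3 most abundant of each class with at least 2 genes, the 12 largest ratios with a group mean of at least 100, and genes listed at 0 in both libraries of a group; the other members are given too, except 1 that enters the counts and is not reported here by name or in the figures.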

Additional observations from a re-analysis of the deposited data

How the results depend on the processing

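Alternatives were quantile normalisation, equal sums of the listed values, no filter, a mean above 5, a pseudocount of 0.1, no intensity trend, an adjusted p under 0.01, the replicate number as a block and each library left out in turn. None of the 41 genes changed sign under any of these. With 1 library left out, a fit that takes the remaining library of its group to be as variable as the other group, 9 to 13 transport genes passed as higher and 12 to 20 as lower, against 17 and 24 with all libraries. Under the other settings 13 to 17 passed as higher and 20 to 24 as lower. With the replicate block 17 and 24 passed, as without it. At an adjusted p under 0.01, 8 genes lost their call, among them ATP6V0A4, ATP8B2, KCNJ2, KCNK2, SLC17A4, SLC2A5 and TRPV2. With quantile normalisation and with equal sums, all listed genes shifted upward by 0.32 and 0.30 in their median log2 fold change. That of the transport genes, -1.03 as reported, became -0.74 and -0.73; it was -1.05 to -1.01 with 1 library left out. SLC24A3 was not tested with a mean above 5. Transport genes with a mean under 100 kept their call without each library least often, and those with a mean of at least 1000 most often. The like shares over all listed genes were not counted.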

Other observations

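The listed genes of each family are given here as counts without a test, beside 5.87% of all protein-coding genes. Of 45 ABC genes and 26 CACN genes annotated in GENCODE 29, 0 were listed, as were 0 of 8 TRPM and 0 of 8 TRPC genes. Of 9 CLCN genes 2 were listed, of 97 KCN genes 6, of 91 ATP genes 5 and of 382 SLC genes 25. The 5 genes left out by the rule are not in these counts.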
